A study of Homo sapiens with 9 samples.

Results

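A set of 5527 single-nucleotide MSI1 iCLIP sites lay antisense to annotated genes: each was in no gene interval on its own strand and inside at least 1 gene interval on the other strand. iCLIP sequences RNA that ultraviolet light has linked to a protein, here precipitated with an anti-MSI1 antibody, and reports the linked position with its strand. A site counted as a member when the same chromosome, position and strand stood in at least 2 of the 3 deposited lists. The members were 5527 of the 42985 sites shared by at least 2 lists, and those were drawn from 2053804 distinct sites in all. Sites in at least 2 lists and inside a gene on their own strand numbered 37448 and are called sense sites here. Antisense sites found in 1 list numbered 98792. The gene on the other strand is called the host of a member.

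All samples were U251 cells, an established human glioblastoma line. RNA-seq compared 3 samples labelled Msi1 KD (knockdown) with 3 samples labelled WT, the wild type control, and the 3 iCLIP samples were also WT. No iCLIP of knockdown cells and no iCLIP input were analysed here, and the labels name neither the knockdown reagent nor a treatment of the controls. Whether replicates were separate cultures is not stated, so each p-value reflects the spread among the samples as deposited, and that spread may be technical. The 3 lists differed in size, with 1746795 sites in replicate 1, 145718 in replicate 2 and 208722 in replicate 3. The RNA-seq libraries held 32919299 to 47277016 counts over genes. Of the glial and mesenchymal markers, VIM and CD44 were at 2229 CPM (read counts scaled to the library total) or more in every WT library, NES at 574 to 871 CPM, GFAP at 18.2 to 101.02 CPM and S100B at 1.09 to 2.18 CPM, while the leukocyte gene PTPRC was at 0 and EPCAM and PECAM1 did not exceed 0.0520 CPM.

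MSI1, also known as Musashi1, is an RNA-binding protein of neural stem cells and glioma that recognises short motifs with a UAG core, and it is best known for regulating the translation and processing of messenger RNAs. RNA made from the strand opposite a gene can be a natural antisense transcript, a small non-coding RNA gene or pseudogene in an intron, or transcription that runs on past the end of a neighbouring gene. The gene tables name 1 gene interval per symbol, so an RNA that they do not list leaves its sites without a gene on their own strand.

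The antisense share differed among the lists. It was 4.22% of sites in replicate 1, 12.2% in replicate 2 and 9.28% in replicate 3, and it was lowest in the longest list. Of the antisense sites, 4.08% in replicate 1, 24.3% in replicate 2 and 24.4% in replicate 3 stood in another list as well. The shares for sites inside genes on their own strand were 2.02%, 11.5% and 15.8% in the same order, lower in each list. Antisense sites accordingly made up 22.4% of the sites in all 3 lists (997 of 4446), 11.8% of those in exactly 2 lists (4530 of 38539) and 4.91% of those in 1 list. The members were chosen by their presence in the lists, so these values and all others from the lists are descriptions with no test, apart from the comparison of exon shares.

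**Figure D1:**
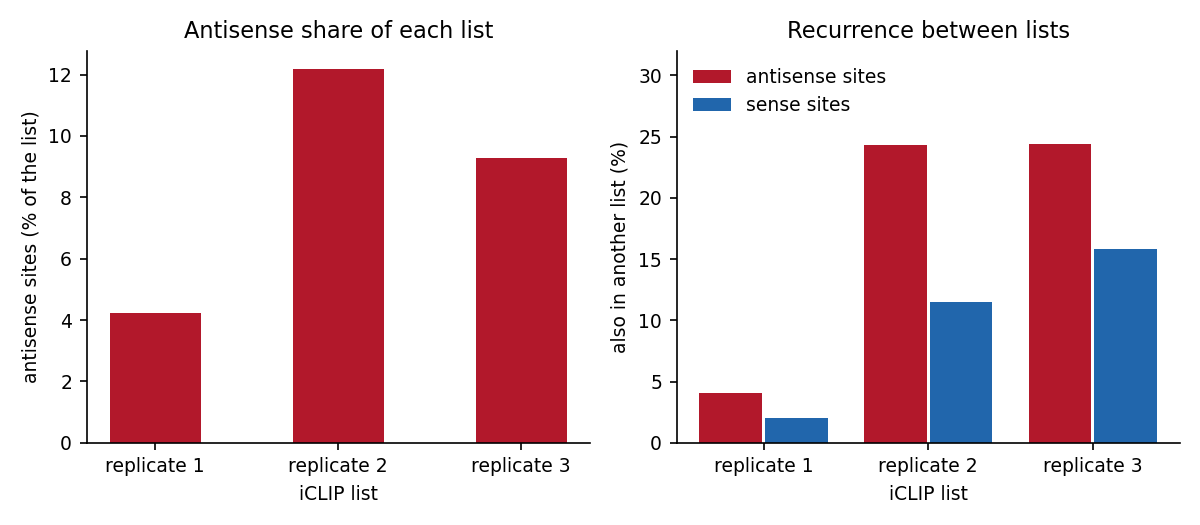
Antisense sites as a percentage of each iCLIP list (left) and the percentage of antisense and of sense sites that also stood in another list (right). The antisense bars on the right reach 4.08%, 24.3% and 24.4%, each above the sense bar beside it.

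The lists that shared a site also differed between strands. Of the members, 45.5% were in replicates 2 and 3 alone, 22.0% in replicates 1 and 3 alone, 14.4% in replicates 1 and 2 alone and 18.0% in all 3 lists. Of the sense sites, 9.88% were in replicates 2 and 3 alone and 60.8% in replicates 1 and 3 alone. The most frequent pairing was thus different for the members and the sense sites. The authors gave each site a p-value, whose test is not given in the sources used here. Of the members, 11.2% in replicate 1, 2.60% in replicate 2 and 3.34% in replicate 3 had a p of at most 0.05, against 14.5%, 5.28% and 7.55% of the sense sites in the same lists. Members listed with a p of exactly 1 were 40.4%, 35.2% and 37.8%, against 23.7%, 13.5% and 19.4% of the sense sites. Most members were therefore positions that recurred without a low p.

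Joining sites on 1 strand with gaps of at most 50 nt gave 3601 clusters of members. Of these, 2731 (75.8%) held a single site, 759 held 2 to 4 and 111 held 5 or more. The 111 clusters of 5 or more held 872 members, or 15.8%, and the largest held 59. Sense sites formed 23621 clusters, 86.9% of them single, and 680 of 5 or more with 29.1% of the sites. The clusters of 5 or more members fell into sets by the authors' p. In 13 of the 111 the lowest p was at most 0.05 in each of the 3 lists, in 15 in 1 or 2 lists and in 83 in none. The 13 clusters with a low p in every list had a median width of 36 nt (18 to 182 nt) and none was an unbroken run of neighbouring positions. The 83 clusters without a low p had a median width of 7 nt (5 to 29 nt), and 30 of them (36.1%) were unbroken runs. None of the 13 low-p clusters and 1 of the 83 others had a site opposite an exon. The lowest p was taken over all sites of a list in a cluster, so clusters with more sites had more chances of a low p. The 13 held 7 to 59 members each, and the part of site number in the widths and runs was not tested.

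For the hosts of the 13 low-p clusters, GENCODE release 29, on another genome build (GRCh38), gave small non-coding RNA genes inside the host on the strand of the sites in 6 cases. Positions were not transferred between builds, so whether a cluster lies on the small RNA was not tested. The transcripts of 2 are shown as examples, for the largest cluster (BTRC) and for the host of the one other member among the 8 with the lowest p (EFCAB5). They are not a sample of how often such RNAs hold the motif. They are given as DNA letters 5′ to 3′ with each TAG, the DNA form of the UAG core, in capitals:
RNU2-59P: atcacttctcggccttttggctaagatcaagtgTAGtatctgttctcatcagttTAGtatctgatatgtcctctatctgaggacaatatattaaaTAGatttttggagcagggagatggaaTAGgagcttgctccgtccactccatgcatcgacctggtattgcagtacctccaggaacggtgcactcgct
RNY4P13: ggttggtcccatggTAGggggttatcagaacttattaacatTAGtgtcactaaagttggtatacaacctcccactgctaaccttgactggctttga

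RNU2-59P, a pseudogene of the U2 spliceosomal RNA, is on chromosome 10 inside BTRC, is 191 nt long and holds TAG 4 times. RNY4P13, a pseudogene of the Y4 RNA, is on chromosome 17 inside EFCAB5, is 96 nt long and holds TAG 2 times. TAG was searched on the transcript's own strand, and 84.6% of 3960 GENCODE small RNA transcripts of 80 to 200 nt hold it at least 1 time, so its presence sets neither of these apart. CCDC85C and HHAT, also hosts of low-p clusters, each hold a single small RNA gene of the other strand. TAG stands 2 times in RF00019 inside CCDC85C and 0 times in RNU5A-8P inside HHAT. DLG2 and TRPM6 also hold small RNA genes of the other strand, among them the U6 pseudogenes RNU6-1292P and RNU6-445P. UNC45B and KIF5C held or met an antisense gene there but no small RNA, and DUSP5P, C17orf44, C1orf228 and ACN9 had no GENCODE gene of that symbol.

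Over all hosts, 2349 of 2639 symbols (89.0%) matched GENCODE. A small RNA gene lay inside on the other strand in 16.6% of matched hosts, in 34.4% of the matched hosts of clusters of 5 or more, and in 6.02% of all matched genes. Long genes can hold more such genes, and the median lengths of the 3 sets were 94313, 151975 and 20066 nt. The part of length in these shares was not tested.

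The largest cluster lay opposite BTRC, which encodes the substrate-recognition subunit of a ubiquitin ligase for beta-catenin. It spanned chr10:103114632-103114768 of hg18 on the minus strand, in an intron, with 59 members, 50 of them in all 3 lists. The lists held 63, 64 and 53 sites there, with a lowest p of 4.53e-15 in replicate 1 and of 0 in replicates 2 and 3. In every list the first site with p of at most 0.05 stood 73 nt after the cluster's first member, as the plot of the 6 largest clusters shows. The nearest gene upstream on the minus strand, POLL (DNA polymerase lambda), ended 213861 nt away. Of the 8 members whose highest p over the lists was lowest, 7 were in this cluster and the other was opposite EFCAB5.

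The second cluster, opposite an intron of UNC45B (a myosin chaperone of striated muscle), spanned chr17:30502283-30502458 on the minus strand with 38 members. The lists held 103, 27 and 24 sites there. UNC45B had 0, 2 and 1 sense sites in replicates 1, 2 and 3, and no RNA-seq count in any of the 6 libraries. The third, with 32 members opposite an intron of DLG2 (a postsynaptic scaffold protein), spanned chr11:84872661-84872842 on the plus strand, and the lists held 109, 16 and 23 sites there. These clusters were 176 and 182 nt wide, with sites of replicate 1 in the majority.

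The other low-p clusters were narrower. The cluster opposite DUSP5P (a pseudogene of the phosphatase DUSP5), at chr1:226848446-226848477 on the minus strand, had 25 members and 23, 27 and 22 sites in the 3 lists. The cluster opposite TRPM6 (a magnesium channel of kidney and gut), at chr9:76652265-76652300 on the plus strand, had 21 members and 19, 22 and 17 sites. The cluster opposite KIF5C (a neuronal kinesin heavy chain), at chr2:149355806-149355861 on the minus strand, had 15 members and 32, 8 and 18 sites. Unlike the clusters opposite UNC45B and DLG2, those opposite DUSP5P and TRPM6 held similar numbers of sites in the 3 lists although replicate 1 is by far the longest. The cluster opposite CCDC85C, at chr14:99119156-99119173 on the plus strand, had 11 members in 18 nt with a lowest p of 0.00165, 1e-06 and 8.04e-06. Other low-p clusters lay opposite C17orf44 (14 members), C1orf228 (11), ACN9 (11), HHAT, which attaches palmitate to Hedgehog proteins (10), and EFCAB5 (7).

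**Figure D2:**
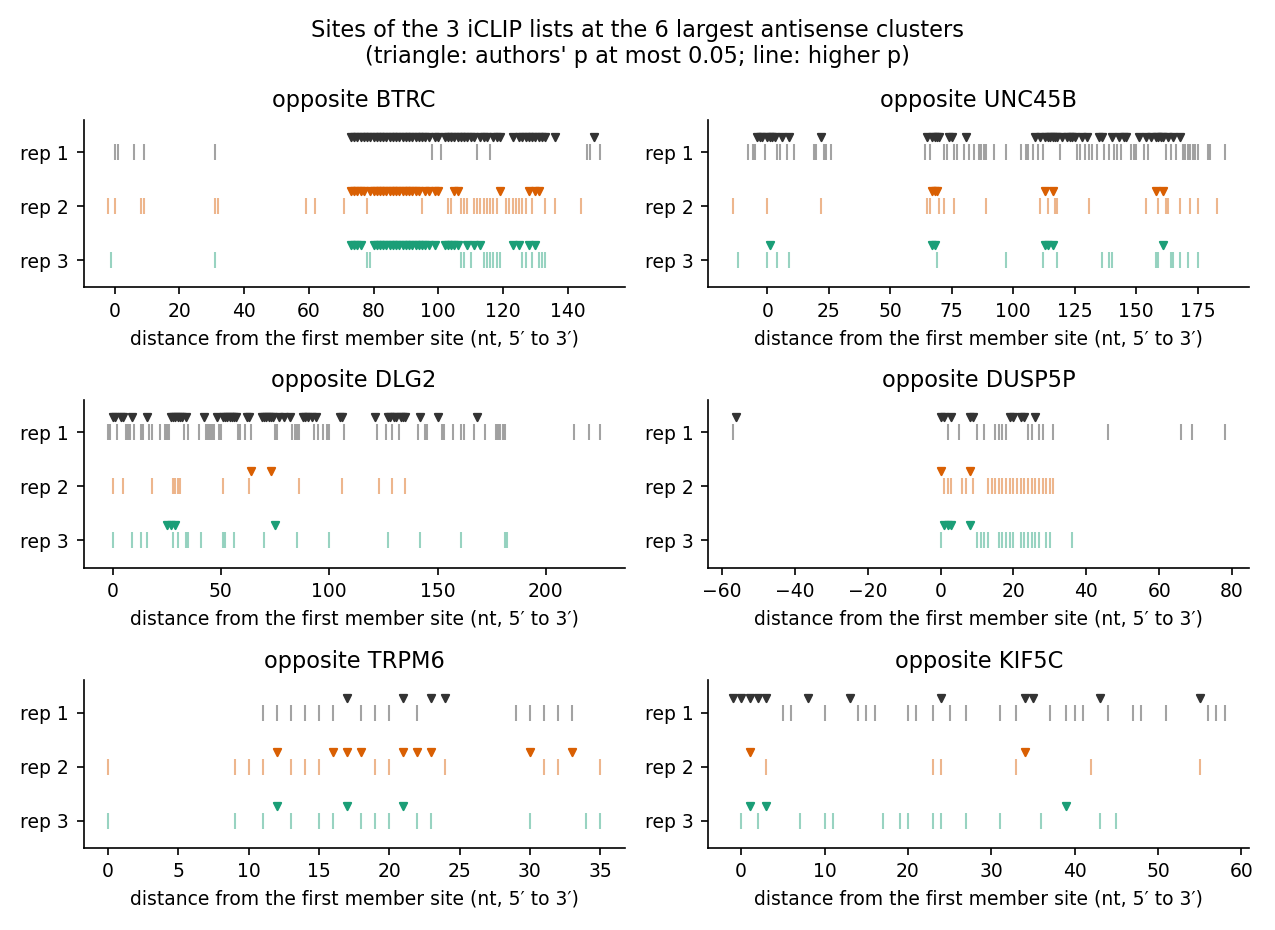
Position of every iCLIP site in the 3 lists at the 6 largest antisense clusters, as distance in nt from the cluster's first member, with triangles for sites with the authors' p at most 0.05 and lines for the others. The BTRC cluster has its low-p sites from 73 nt onward in all 3 lists, whereas UNC45B and DLG2 have most sites in replicate 1.

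Clusters without a low p could be as dense. The cluster opposite SUZ12, a core subunit of the Polycomb repressive complex PRC2, held 12 members in 16 nt at chr17:27300831-27300846 on the minus strand, with a lowest p of 0.104 in replicate 1, 0.438 in replicate 2 and 0.377 in replicate 3. GENCODE has a 5S rRNA pseudogene, RNA5SP437, inside SUZ12 on the minus strand, and it holds TAG 0 times. The cluster opposite MAX, the dimerisation partner of MYC, held 11 members in 29 nt with a lowest p of 0.417, 0.535 and 0.140. The cluster opposite LOC100190939 held 11 members in 13 nt with a lowest p of 1, 0.263 and 0.255.

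Members lay opposite introns in most cases. Of the 5527, 5174 (93.6%) were opposite an intron and 353 (6.39%) opposite an exon, against 13.5% opposite an exon for antisense sites in 1 list and 5.45% of the 1140.93 Mb of genome where a member could lie. By exon, 4 members were opposite a first exon, 207 opposite an internal exon, 131 opposite a last exon and 11 opposite the only exon. First exons held 0.0724% of the members, against 0.968% of the antisense sites in 1 list and 0.458% of the possible sequence. Internal exons held 3.75% of the members and 2.32% of the possible sequence. In replicates 1, 2 and 3, 9.73%, 4.78% and 5.84% of members were opposite an exon. Antisense sites found in 1 list stood at 16.7%, 4.60% and 5.94% in the same order. Members were thus well below them in replicate 1 only, and close to them in replicates 2 and 3. Of the sense sites, 46.6%, 47.4% and 43.4% lay in an exon of their own gene. The mean was 6.78% ± 2.61 for members and 45.8% ± 2.11 for sense sites (SD, n = 3 lists each), a difference of -39.0 percentage points. Its exact paired permutation p (two-sided) was 0.25, the smallest that 3 lists allow, so the test could not have passed. Each member stands in at least 2 of the lists, so the 3 shares rest in part on the same sites and are not independent.

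The exon share depended on the lists a member came from. It was 12.1% for members of replicates 1 and 3 alone and 9.66% for those of replicates 1 and 2 alone, against 2.38% for those of replicates 2 and 3 alone and 6.92% for those in all 3 lists. Without replicate 1 the share was 3.67%.

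Few members lay shortly after the end of a gene on their own strand. Their share there was above that of the possible sequence and below that of antisense sites in 1 list. Within 5000 nt after such a gene end stood 160 members (2.89%), against 11.1% of antisense sites in 1 list and 1.37% of the possible sequence. Within 1000 nt stood 43 members (0.778%), against 2.32% and 0.186%, and within 10000 nt 347 (6.28%), against 18.3% and 3.16%. Within 1000 nt before a gene start on their own strand stood 6 members (0.109%), against 0.512% and 0.209%. The share within 5000 nt after a gene end was 7.81% for members of replicates 1 and 3 alone and 0.914% for those of replicates 2 and 3 alone. The median member lay 157607 nt after the nearest gene end and 200687 nt before the nearest gene start on its own strand. At the edge of the rule, 3 members lay within 100 nt of a gene on their own strand, the closest at 14 nt, and 380 sites in at least 2 lists fell inside genes of both strands and so were not members.

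The 160 members within 5000 nt of a gene end had 110 different genes as their nearest upstream gene. Of these members, 134 also lay within 5000 nt of the end of their host, so the neighbouring gene and the host converged, and 74 (46.3%) were opposite an exon, 38 of them a last exon. Along their hosts, the median member stood at 0.486 of the host's length from its start (quartiles 0.235 and 0.759), 45583 nt from the start and 49123 nt from the end. Within 1000 nt of a host start lay 0.995% of members, against 3.96% of antisense sites in 1 list and 1.71% of the possible sequence.

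Hosts numbered 2639, or 12.7% of the 20848 genes in the table. Of them, 1533 had 1 member and 42 had 10 or more, and 217 had a member opposite an exon. The share of genes that were hosts was 1.29% below 10 kb, 6.42% from 10 to 30 kb, 17.3% from 30 to 100 kb, 34.9% from 100 to 300 kb and 70.1% (474 of 676) from 300 kb. The minus strand carried 2851 members and the plus strand 2676. Per Mb of sequence where a member could lie, density ran between 3.40 members on chromosome 4 and 8.21 on chromosome 19. It was 4.84 over all such sequence.

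In a few hosts members were scattered along the gene, not clustered. JAKMIP2, named as a Janus kinase and microtubule interacting protein, had 54 members in 52 clusters spanning 77.7% of the gene. Its antisense sites numbered 3201, 186 and 192 in the 3 lists, against 38, 7 and 5 sense sites. GENCODE gives a gene named JAKMIP2-AS1 that partly overlaps JAKMIP2 on the other strand. JAKMIP2 itself was at 12.5, 12.9 and 12.5 CPM in Msi1 KD cells, against 8.82, 10.2 and 9.15 CPM in WT cells. The groups did not overlap, and the difference did not pass the threshold (log2 fold change 0.43 ± 0.16 SE, edgeR adjusted p = 0.262).

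CDHR5, a cadherin-related protein of the intestinal brush border, had 29 members in 22 clusters over 91.8% of its 8503 nt, and 1480, 17 and 37 antisense sites with no sense site in any list. The members began 4877 nt and ended 12684 nt after the end of PHRF1, a ubiquitin ligase gene on the same strand as the sites. IRF7, an interferon-regulating transcription factor gene between both, had 10 members at 349 to 3197 nt after PHRF1, and 661, 0 and 15 antisense sites with no sense site. Together 26 members lay within 10000 nt after PHRF1, none of them in all 3 lists. PHRF1 was at 59.8 ± 18.7 CPM in Msi1 KD cells and 54.6 ± 30.1 CPM in WT cells (SD, n = 3 each), and IRF7 at 0.606 ± 0.270 CPM in Msi1 KD cells and 0.671 ± 0.595 CPM in WT cells. IRF7, PHRF1 and the next 2 genes were chosen after their values were seen.

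ANKRD36BP1, a pseudogene, had 9 members, all opposite its exons and all 2740 to 4280 nt after the end of SFT2D2, a gene of vesicle transport. It had 87, 17 and 59 antisense sites and no sense site. ANKRD36BP1 counts were 22.1 ± 3.59 CPM in Msi1 KD cells and 40.6 ± 5.61 CPM in WT cells, and SFT2D2 counts 9.94 ± 1.36 CPM in Msi1 KD cells and 17.1 ± 0.786 CPM in WT cells (SD, n = 3 each). Their log2 fold changes of -0.88 and -0.78 had edgeR adjusted p = 0.0718 and 0.0796, and 0.00512 and 0.0127 with replicates as a block. Without WT replicate 3 both passed (0.0326 and 0.0490). The strand setting of the RNA-seq counting is not given in the sources used here, so reads of a host and of an RNA from its other strand cannot be told apart in any host count.

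**Figure D3:**
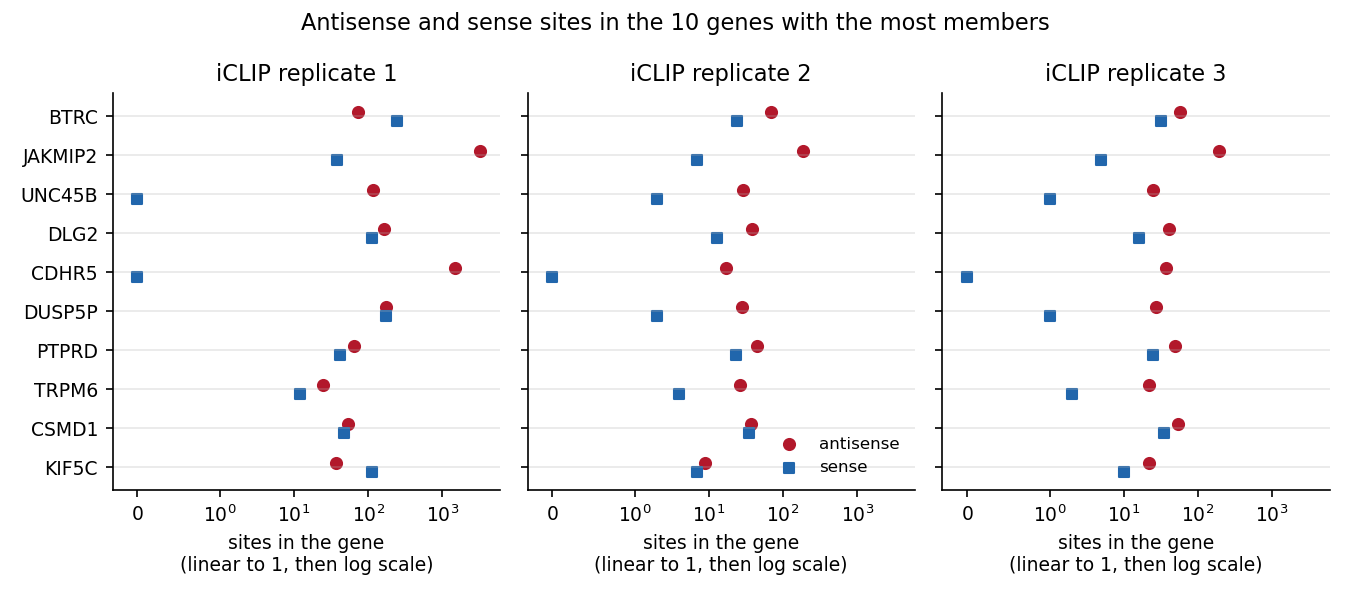
Number of antisense (circles) and sense (squares) iCLIP sites in each of the 10 genes with the most members, by list, on an axis that is linear up to 1 and logarithmic above. JAKMIP2, UNC45B, DLG2, CDHR5, DUSP5P, PTPRD, TRPM6 and CSMD1 have more antisense than sense sites in every list, DUSP5P by 174 to 173 in replicate 1. BTRC and KIF5C have more sense sites in replicate 1 alone.

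The density of members spanned a narrower range over the RNA level of the host than that of sense sites. In classes of mean WT level per kb of exon of below 0.1, 0.1 to 1, 1 to 10, 10 to 100 and at least 100 CPM per kb, genes held 4.03, 4.71, 4.74, 5.56 and 7.64 members per Mb of gene length. Sense sites in the same classes stood at 6.43, 10.7, 17.8, 57.1 and 615 per Mb. Antisense sites in 1 list stood at 61.0, 131, 88.1, 82.7 and 104 per Mb. Of the members, 36.0%, 34.3% and 34.9% in the 3 lists had a host below 1 CPM per kb, against 7.88%, 14.9% and 9.80% of sense sites. The classes below 0.1 and from 0.1 to 1 CPM per kb made up 25.9% and 13.7% of the summed gene length. BTRC and KIF5C were expressed, at 63.3 ± 7.48 and 82.4 ± 10.4 CPM in Msi1 KD cells and 63.7 ± 10.2 and 85.9 ± 12.2 CPM in WT cells, whereas TRPM6 was at 0.778 ± 0.156 CPM in Msi1 KD cells and 0.541 ± 0.0915 CPM in WT cells (SD, n = 3 each).

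**Figure D4:**
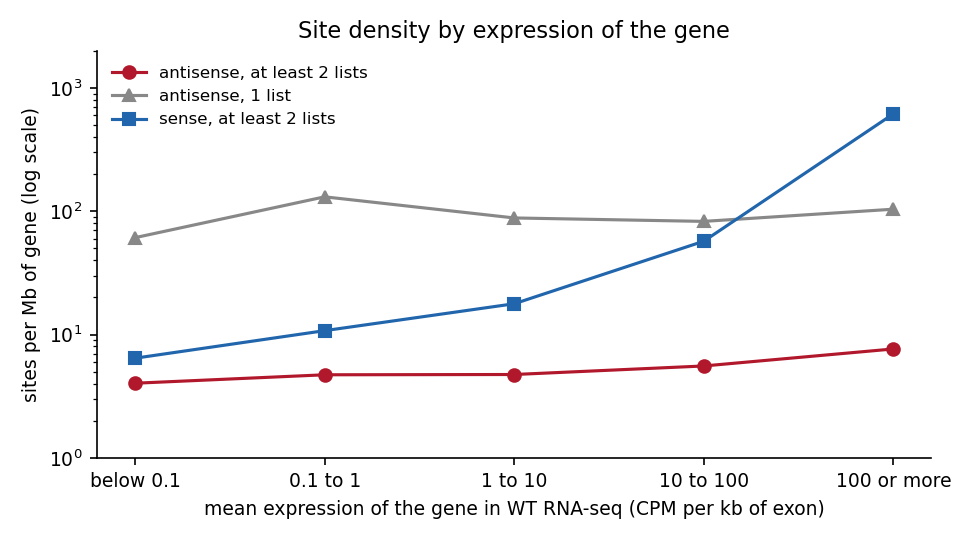
Sites per Mb of gene length (log scale) in 5 classes of mean WT RNA-seq level in CPM per kb of exon, for members, antisense sites in 1 list and sense sites. Members go between 4.03 and 7.64 per Mb over the classes, sense sites between 6.43 and 615 per Mb.

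The knockdown libraries gave a measure that the choice of members did not use. MSI1 was at 3.15, 5.11 and 2.26 CPM in the Msi1 KD libraries, against 16.05, 17.69 and 7.59 CPM in the WT libraries. Every Msi1 KD library was below every WT library, with a log2 fold change of -1.97 ± 0.42 (SE). The edgeR quasi-likelihood adjusted p was 0.0699, and 0.00279 with replicates as a block. MSI1 was itself a host, with 1 member opposite an exon.

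Of 13856 genes tested, 232 (1.67%) passed an edgeR adjusted p of 0.05, 107 higher (0.772%) and 125 lower (0.902%) in Msi1 KD cells. Of the 2639 hosts, 2149 passed the filter on low counts and 47 were called (2.19%), 19 higher and 28 lower, a share near the 1.67% over all genes. The median log2 fold change of tested hosts was -0.08, against -0.04 over all genes tested. With the replicate block 472 hosts (22.0%) were called, 158 higher and 314 lower. Over all genes it called 17.3%, 976 higher and 1422 lower, so lower calls were more frequent there too. The median WT level was 35.6 CPM for tested hosts and 25.1 CPM for all genes tested, and the part of level in these shares was not tested. The CPM values of the groups did not overlap for 612 tested hosts (28.5%), against 22.8% of all genes tested. The count of called hosts with group as the only term changed whichever library was left out. It was 0 without any one Msi1 KD library, 1 without WT replicate 1 or 2, and 192 (8.83%) without WT replicate 3. Over all genes the count moved likewise, to between 0 and 4 without any one Msi1 KD library, 10 and 9 without WT replicate 1 and 2, and 1028 (7.31%) without WT replicate 3. Of the 10 hosts with the most members, 8 were tested. Neither edgeR nor DESeq2 called any (0 each), and 1 had an unadjusted edgeR p below 0.05.

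Among called hosts, ITPR1, the inositol trisphosphate-gated calcium channel of the endoplasmic reticulum, was at 34.3, 34.3 and 39.4 CPM in Msi1 KD cells, against 9.77, 11.2 and 11.5 CPM in WT cells. The groups lay well apart, with a log2 fold change of 1.73 ± 0.16 (SE) and an edgeR adjusted p of 0.00873. Its 3 members were in introns, each in 2 lists, 116233 to 136458 nt after the nearest gene on their strand, EGOT. EGOT is known as a non-coding RNA made from the ITPR1 locus.

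Of the other called hosts, FAM70A (log2 fold change 2.02), AP1S3, a small subunit of a clathrin adaptor (1.78), ARL6IP6 (1.52), NRXN3, a presynaptic adhesion protein (1.40), and BTBD7 (1.21) also rose, with edgeR adjusted p from 0.00931 to 0.0149. Each had 1 member apart from AP1S3, which had 2 neighbouring ones, and all lay opposite introns.

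TULP4, a tubby-like protein, had the lowest adjusted p among hosts that fell. It was at 39.2, 40.8 and 38.7 CPM in Msi1 KD cells, against 139.1, 136.1 and 128.8 CPM in WT cells, with a log2 fold change of -1.77 ± 0.12 (SE) and an edgeR adjusted p of 0.00478. Its single member lay in an intron and stood in replicates 2 and 3, where the authors list 0.107 and 1 for it. MTMR12, an inactive myotubularin (log2 fold change -1.60), NSF, the ATPase that takes SNARE complexes apart (-1.54), CTDSP2, a phosphatase (-1.31), SGK1, a stress-induced kinase (-1.23), and VSNL1, a neuronal calcium sensor (-1.15), fell as well, with edgeR adjusted p from 0.0102 to 0.0149. Of these, CTDSP2 had its member opposite an internal exon and the others opposite introns. In the 12 called hosts named, 1 of the 16 members was listed by the authors at or below 0.05, at MTMR12 in replicate 1 with 0.0494. All 12 kept their direction when any 1 library was left out, but none passed without any 1 Msi1 KD library (edgeR adjusted p 0.0524 to 0.156), and TULP4 alone passed without WT replicate 1 (0.0322) or 2 (0.0357).

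**Figure D5:**
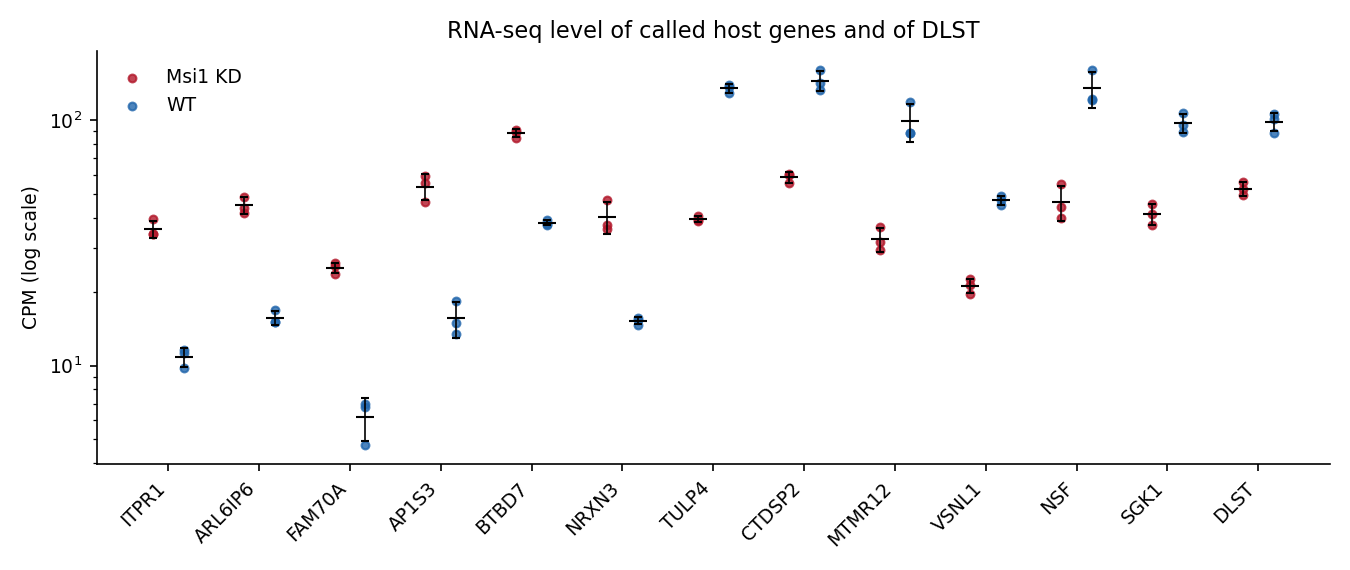
CPM on a log scale in each Msi1 KD and WT library (points, 3 each) with the mean and SD (bars) for 6 host genes that rose, 6 that fell and the upstream neighbour DLST. The points of the groups do not overlap for any of the 13 genes, and ITPR1 averages 36.0 CPM in Msi1 KD cells against 10.9 CPM in WT cells.

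Genes that ended within 5000 nt upstream of a member on its own strand numbered 111, 1 of which was the nearest such gene to no member. Of these, 100 were tested and 1 was called, against 1.67% of all genes; 12 of the 100 had an unadjusted p below 0.05, DESeq2 called 5, and the replicate block called 16. Over all genes tested these shares were 15.5%, 5.76% and 17.3%, each above the share of the neighbours. The called gene was DLST, a subunit of the 2-oxoglutarate dehydrogenase complex of the citric acid cycle. DLST was at 56.0, 52.2 and 49.5 CPM in Msi1 KD cells, against 105.7, 101.1 and 88.9 CPM in WT cells. All Msi1 KD libraries were lower than all WT libraries, with a log2 fold change of -0.91 ± 0.14 (SE) and an edgeR adjusted p of 0.0302. The call was lost without any 1 Msi1 KD library and without WT replicate 1 or 2 (edgeR adjusted p 0.127 to 0.212), and without WT replicate 3 there were 7 called neighbours (6.93%), against 7.31% of all genes in the same fit. Within 5000 nt after its end 4 members stood 3375 to 3781 nt downstream, all opposite an internal exon of RPS6KL1, a kinase-like gene on the minus strand. One of them, at chr14:74443983 of hg18 on the plus strand, was listed by the authors at 3.4e-05 in replicate 1 and 0.0576 in replicate 3.

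Lists of adhesion genes were counted among hosts without a test. Of 45 integrin and focal adhesion genes in the table, 9 were hosts, with 14 members; PTK2, the focal adhesion kinase, and SVIL had 3 each. Of the 8 of these hosts that were tested, 0 rose and 1 fell, PTK2 (log2 fold change -1.02, edgeR adjusted p = 0.0300). Of 50 extracellular matrix genes, 8 (16.0%) were hosts with 1 member each, among them TNC, HSPG2 and LAMA2, and of the 8 tested edgeR called 0, with 0 at an unadjusted p below 0.05, DESeq2 called 0 and the replicate block 1. Of 48 cell-cell junction genes, 21 (43.8%) were hosts with 65 members, led by the cadherin CDH13 (11) and the neuroligin NLGN1 (10). Of the 15 of these that were tested, 1 rose, NRXN3, and 1 fell, the adhesion molecule CADM1 (log2 fold change -0.995, edgeR adjusted p = 0.0340), and the replicate block called 8. The background was 12.7% of all genes as hosts. Over all genes tested, edgeR called 1.67%, the replicate block 17.3% and DESeq2 5.76%. An unadjusted edgeR p below 0.05 was reached by 15.5% of them. The lists' median gene lengths were 82844, 70020 and 102176 nt, against 20066 nt over all genes. The calls of PTK2 and CADM1 were lost without any 1 Msi1 KD library and without WT replicate 1 or 2 (edgeR adjusted p 0.0891 or more). Of 35 genes with a well-known antisense RNA (median length 31733 nt), 2 (5.71%) were hosts, GATA6 and KCNQ1, each with 1 member. The 1 tested was not called by edgeR. A site on an antisense RNA that the gene tables list could not be a member, so this count cannot tell whether such RNAs held sites.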

How the data were processed

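The data were 3 iCLIP samples of WT U251 cells and RNA-seq of 3 Msi1 KD and 3 WT samples, grouped by their titles. The authors deposited iCLIP lists of single-nucleotide sites with a gene symbol, a strand and a p-value, and raw counts of reads per gene and per exon. Coordinates are those of hg18, the build in the submitters' processing notes. Not given in the sources used here are the aligner, the peak caller, the strand setting and the meaning of the p-value. Per the labels' protocols, cells were cross-linked at 100 mJ/cm2, 50 nt reads were made and biological replicates were combined, while the titles give 3 replicates. The same iCLIP protocol text also stands on the RNA-seq samples. The lists give no read counts, so the depth behind a site is unknown.

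Sites were placed against the gene and exon intervals of the count tables. Gene counts were tested with edgeR 4.0.16 (TMM, filterByExpr, glmQLFit and glmQLFTest, Benjamini-Hochberg adjustment at 0.05) in R 4.3.3, on all 6 libraries with group as the only term. The scripts were tested on simulated data. Same-numbered libraries deviated together (correlations 0.318, 0.732 and 0.751, each above the bound of 0.1), so the replicate numbers in the titles were taken to pair them, and a fit with the replicate as a block is given where it moved a result. Levels between genes are CPM per kb of summed exon length. DESeq2 1.42.0, other scalings and filters, and leaving out each library or list were alternatives. The fits without a library had group as the only term, so how far the block fit rests on single libraries was not tested. A comparison with sites in no gene on either strand was not made, since 10 sites in at least 2 lists were of that kind. Named genes are MSI1, the 10 hosts with the most members, the hosts and upstream genes of the 12 largest clusters, up to 6 called hosts and upstream neighbours per direction, and the hosts of the 8 members with the lowest p. No upstream gene of these clusters was called by edgeR with group as the only term, and most are not described above. With the replicate block SLC25A30, C1orf96 and RORB passed (edgeR adjusted p = 0.0168, 0.0346 and 0.0497), where 17.3% of all genes did. The members and gene lists were chosen with earlier results of these data known. GENCODE release 29 supplied names, neighbours and transcript sequences only. Some items among the clusters are not reported here.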

Additional observations from a re-analysis of the deposited data

How the results depend on the processing

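Requiring all 3 lists left 997 members in 687 clusters, and counting a site in a list with p of at most 0.05 alone left 116 members in 43 clusters, 12.9% of them opposite an exon. Leaving out each iCLIP list in turn gave 1794 to 3513 members in 1321 to 2081 clusters, with 3.67% to 9.76% opposite an exon and 1.17% to 5.10% within 5000 nt after a gene end. Extending genes by 10000 nt downstream set the last share to 0 by construction. With the replicate block, calls numbered 2398 over all genes, 472 among hosts and 16 among upstream neighbours. DESeq2 called 798 (5.76%), 141 (6.56%) and 5 of 100, and leaving out each RNA-seq library in turn gave 0 to 1028, 0 to 192 and 0 to 7. The cause of these shifts was not tested. Hosts of members in all 3 lists gave 13 calls of 524 tested (2.48%), and hosts with a member opposite an exon 4 of 172 (2.33%). Upstream neighbours gave 2 calls of 179 tested (1.12%) within 10000 nt and 0 of 27 within 1000 nt, against 1.67% of all genes. Of the 20 genes given with a fold change and test, 15 were called. All kept their direction under each of these alternatives. Each of the 15 lost its call without any 1 Msi1 KD library, and 14 did without WT replicate 1 or 2, all except TULP4. The block added calls for MSI1, ANKRD36BP1, SFT2D2 and PAPPA and removed none, and size factors in edgeR removed that of CADM1 (adjusted p = 0.0532) and added that of PAPPA (0.0467). The lists give no read depth, so the precision behind a single site is unknown.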

Other observations

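Of 3427 genes with at least 10 sites in each iCLIP list, 52 (1.52%) had more antisense than sense sites in all 3 lists. These genes were found by their values and carry no test. PIK3C2G, a class II phosphoinositide 3-kinase, had 431, 29 and 32 antisense sites in the 3 lists, against 6, 0 and 4 sense sites, yet 1 member. RPA3, the smallest subunit of the replication protein A complex, had 400, 42 and 61 antisense sites, against 10, 0 and 1 sense sites, and 7 members. PLXNA4, a semaphorin receptor, had 362, 19 and 16 antisense sites, against 14, 0 and 3 sense sites, and 3 members. CC2D2A, a protein of the ciliary transition zone, had 199, 12 and 26 antisense sites, against 8, 1 and 0 sense sites, and 2 members. In these genes antisense sites outnumbered sense sites in each list while few positions recurred exactly.

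PCBD2, a dehydratase of biopterin metabolism, had 15 members, with 228, 19 and 30 antisense sites against 177, 15 and 17 sense sites, so both strands were listed to a like extent. PAPPA, a protease of insulin-like growth factor binding proteins, had 304, 14 and 27 antisense sites, against 206, 8 and 11 sense sites. PAPPA was at 44.3 CPM in Msi1 KD cells and 19.4 ± 4.52 CPM in WT cells (SD, n = 3), a log2 fold change of 1.19 with an edgeR adjusted p of 0.0559, which did not pass the threshold; it was 0.00344 with replicates as a block and 0.00351 without WT replicate 3.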
